A study of Mus musculus with 242 samples.

Results

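The 74 genes described here encode nuclear-encoded proteins of the mitochondrial respiratory chain, measured in the livers of female B6C3F1 mice. They are every gene of the array whose symbol starts with Ndufa, Ndufb, Ndufc, Ndufs, Ndufv, Uqcr, Cox4i, Cox5, Cox6, Cox7 or Cox8, together with Sdha, Sdhb, Sdhc, Sdhd and Cyc1, out of 18193 genes in all. Assigned by symbol, 36 of these 74 members were counted under complex I, 4 under complex II, 9 under complex III and 16 under complex IV. The 36 include Ndufa4 and its relative Ndufa4l2, placed there by their symbols alone. Neither was called in a treated group. The other 9 match the rule by symbol but are not subunits, namely Ndufaf1 to Ndufaf8, which are complex I assembly factors, and Cox7a2l, a factor of respiratory supercomplexes. Each gene was followed through its brightest probe set on average, and 41 members had several probe sets to choose from.

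The study exposed mice for 13 weeks to 26 chemicals and profiled 1 liver per array, on 242 short-oligonucleotide arrays in 46 treated groups and 14 vehicle control groups of 3 to 5 mice. Mice were 18 weeks old at harvest, no transgene or deletion was labelled, and every array belonged to 1 of 4 runs (A to D). By gavage in corn oil, the groups received benzene at 100 mg/kg, coumarin at 200 mg/kg, 1,2-dibromoethane at 62 mg/kg, iodoform at 93 mg/kg, trichlorofluoromethane at 3925 mg/kg or 2,3-benzofuran at 240 mg/kg. Corn oil also carried 1,2,3-trichloropropane at 2, 6, 20, 40 or 60 mg/kg and 1,4-dichlorobenzene at 100, 300, 400, 500 or 600 mg/kg. In distilled water, groups received 2-chloromethylpyridine hydrochloride at 250 mg/kg or N-methylolacrylamide at 50 mg/kg. In feed, groups received diazinon at 200 ppm, malathion at 14800 ppm, 4-nitroanthranilic acid at 10000 ppm, 2,2-bis(bromomethyl)-1,3-propanediol at 1250 ppm, 1-amino-2,4-dibromoanthraquinone at 20000 ppm or tris(2,3-dibromopropyl)phosphate at 1000 ppm. Feed also carried pentachloronitrobenzene at 8187 ppm, 1,5-naphthalenediamine at 2000 ppm or N-(1-naphthyl)ethylenediamine dihydrochloride at 2000 ppm. By inhalation, groups breathed tetrafluoroethylene at 1250 ppm, tetrafluororethane (spelled as labelled) at 50000 ppm, ethylene oxide at 100 ppm or vanadium pentoxide at 2 mg/m3. The other inhaled chemicals were methylene chloride at 100, 500, 2000, 3000 or 4000 ppm, naphthalene at 0.5, 3, 10, 20 or 30 ppm and propylene glycol mono-t-butyl ether at 25, 75, 300, 800 or 1200 ppm. Control mice received the vehicle alone (corn oil, distilled water, rodent chow or air), and each treated group was set against 1 control set of its run and vehicle, although run D held 3 air and 2 corn oil sets.

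The respiratory chain passes electrons from NADH and succinate to oxygen in the inner mitochondrial membrane. Complex I takes them from NADH and complex II from succinate, complex III hands them to cytochrome c, and complex IV reduces oxygen. Complexes I, III and IV pump protons, and the gradient drives ATP synthase. Hepatocytes are rich in mitochondria and use this ATP for gluconeogenesis, urea synthesis and secretion.

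Signals are given as log2 of the deposited intensity plus 17.3, after scaling, and differences are treated minus control on that scale. Most members were bright: 57 of the 74 lay above the 90th percentile of all probe sets in the control arrays, and 5 lay below the 50th. The dim members were mostly isoforms of other tissues, with median control intensities of 6.21 for Cox7b2 (testis isoform of subunit 7b), 24.1 for Cox8b (isoform of heart, skeletal muscle and brown fat), 64.3 for Cox4i2 (lung isoform of subunit 4) and 88.2 for Ndufa4l2, a hypoxia-induced relative of Ndufa4. Ndufb4, a complex I subunit read by 1 probe set, was also among these 5, at 41.6, so low intensity was not confined to such isoforms. The hepatocyte markers Alb, Apoa1, Ttr, Fabp1 and Cps1 ranged from 14.4 to 17.11 over all arrays, and none was near the floor. The 5 skeletal muscle markers stayed between 4.25 and 8.24. In whole liver RNA, fewer cells of a type and less RNA per cell cannot be told apart.

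Promoter stretches of 4 members whose signals are described by array are shown because their genes lie in 3 different complexes and differ in how many known respiratory-gene motifs they hold. They come from RefSeq on GRCm38.p6, run 5′ to 3′ on the gene's strand, and cover 250 bases before to 20 bases after the annotated start. Capitals mark matches to the NRF1 core GCGCATGC or the ETS core CCGGAAG (bound by GABP) on either strand. The stretches are Cox6a1 at chr5:115348939-115349208 (minus strand), Sdhb at chr4:140961021-140961290 (plus strand), Ndufs3 at chr2:90904702-90904971 (minus strand) and Ndufa10 at chr1:92473739-92474008 (minus strand).
Cox6a1: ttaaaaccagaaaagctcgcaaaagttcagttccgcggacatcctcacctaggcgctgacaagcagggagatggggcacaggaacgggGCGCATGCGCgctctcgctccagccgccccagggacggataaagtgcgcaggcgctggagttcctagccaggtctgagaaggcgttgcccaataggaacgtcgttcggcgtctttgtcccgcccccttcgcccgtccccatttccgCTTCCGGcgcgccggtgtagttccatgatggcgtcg
Sdhb: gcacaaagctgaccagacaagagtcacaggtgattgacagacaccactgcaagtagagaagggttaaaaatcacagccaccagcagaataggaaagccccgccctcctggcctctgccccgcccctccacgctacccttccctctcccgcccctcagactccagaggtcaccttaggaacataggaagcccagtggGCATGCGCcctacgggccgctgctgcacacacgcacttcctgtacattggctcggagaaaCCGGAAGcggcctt
Ndufs3: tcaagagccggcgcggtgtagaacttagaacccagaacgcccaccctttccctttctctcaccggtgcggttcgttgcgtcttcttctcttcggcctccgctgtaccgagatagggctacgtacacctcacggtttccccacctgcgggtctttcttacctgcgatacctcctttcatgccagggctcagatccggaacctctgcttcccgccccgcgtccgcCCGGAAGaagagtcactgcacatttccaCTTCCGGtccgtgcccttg
Ndufa10: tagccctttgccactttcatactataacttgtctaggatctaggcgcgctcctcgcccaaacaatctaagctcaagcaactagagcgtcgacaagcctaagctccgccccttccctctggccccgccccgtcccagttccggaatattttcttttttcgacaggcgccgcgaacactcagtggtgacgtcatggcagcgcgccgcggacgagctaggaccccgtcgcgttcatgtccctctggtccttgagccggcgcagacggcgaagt
In Cox6a1 the capital run GCGCATGCGC holds 2 overlapping NRF1 matches, 1 on each strand. Sdhb holds 1 NRF1 and 1 ETS match, Ndufs3 holds 2 ETS matches, and Ndufa10 holds neither in this window. RefSeq promoters were matched for 59 members, and each was searched on both strands from 250 bases before to 50 after the start. The NRF1 core was present in 8 of the 59 (13.6%) against 3.05% of 27025 genes, and the ETS core in 13 (22.0%) against 9.93%. The YY1 core AAGATGGCG was in 5 (8.48%) against 1.64%, and the ERR site TCAAGGTCA was in 1 (1.69%) against 0.466%. These are letter matches and not measured binding.

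Across the 46 treated groups the members moved little. The median difference over the 74 genes ran from -0.11 to 0.25, and it exceeded the median of all genes in 36 groups. A member was called when limma's adjusted p over all 18193 genes was under 0.05. At least 1 member was called in 13 treated groups, which together held 76 calls of a higher and 8 of a lower signal. Among all genes, 0.269% to 4.46% were called higher in each group with a higher member. In each group with a lower member, 0.0385% to 4.06% of all genes were called lower. Of the 74 members, 37 were called in no treated group. The naphthalene groups at 0.5 and 3 ppm held the most called members. All groups of a run were fitted together, and with only the 2 groups compared in the fit no member was called in any of the 13. On the values as deposited, with the 2 arrays of low overall intensity left unscaled, no member was called for 1,5-naphthalenediamine, 2,3-benzofuran, 1,2,3-trichloropropane or methylene chloride, and 1, 3 and 0 members were called for naphthalene at 0.5, 3 and 10 ppm. Shares of all genes are given for the main settings only. Counts under other settings therefore do not show whether the members differed from other genes.

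**Figure D1:**
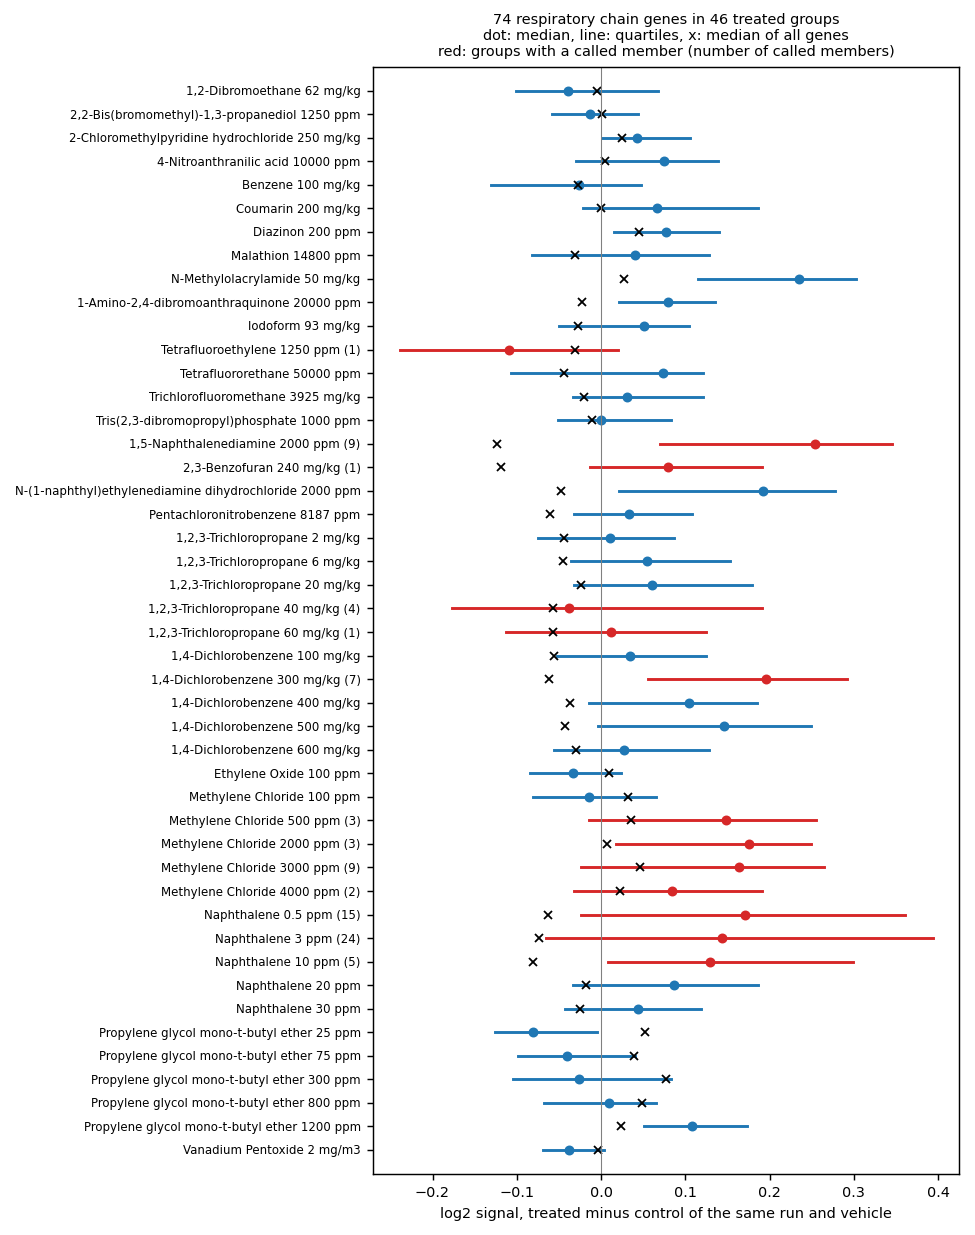
Difference in log2 signal between each of the 46 treated groups and its control arrays, summarised over the 74 genes. Dots are medians, lines span the quartiles, crosses are the medians of all genes, and red marks groups with a called member with their number in brackets. The medians lie between -0.11 and 0.25.

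Inhaled naphthalene gave higher signals of subunits from all 4 complexes at the 3 lowest concentrations. At 0.5 ppm 15 of 74 members rose, against 2.98% of all genes, and none fell. At 3 ppm 20 rose, against 4.46% of all genes, and 4 fell, against 4.06%. The share of members that fell was close to that of all genes. At 10 ppm 5 rose, against 0.676%, and at 20 and 30 ppm no member was called. The member medians were 0.17, 0.14, 0.13, 0.09 and 0.04 in order of concentration, beside all-gene medians of -0.06, -0.07, -0.08, -0.02 and -0.02. With quantile normalisation the direction did not hold, with 3 higher and 5 lower at 0.5 ppm, 9 higher and 10 lower at 3 ppm and 0 called at 10 ppm. With array medians equal the counts rose to 27 higher at 0.5 ppm, 33 higher and 2 lower at 3 ppm and 24 higher at 10 ppm. All 5 concentrations share the air control set labelled ACO5.

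Complex I, the largest class, had 9 of 36 members higher at 0.5 ppm and 12 at 3 ppm. Complexes II, III and IV had 1 of 4, 2 of 9 and 3 of 16 higher at 0.5 ppm. At 3 ppm they had 2 of 4, 2 of 9 and 4 of 16. Ndufa10, an accessory subunit of complex I, read 13.12, 13.38, 13.30, 13.52 and 13.48 in the ACO5 mice. It read 13.92, 14.15, 14.05 and 13.83 at 0.5 ppm and 13.93, 14.10, 14.14 and 13.85 at 3 ppm. Every array at these concentrations lay above every control, and the same held at 10 ppm, where the values were 13.96, 13.90, 13.75 and 13.65. The Ndufa10 differences were 0.63 ± 0.11 (SE; n = 4 against 5; 1.54-fold; limma adjusted p = 0.00012) at 0.5 ppm, 0.64 (adjusted p = 7.7e-05) at 3 ppm and 0.46 (adjusted p = 0.02) at 10 ppm. At 20 and 30 ppm they were 0.18 and 0.10, which were not called. Among the other complex I genes, the accessory subunits Ndufa8 and Ndufa13 rose by 0.50 and 0.55 at 0.5 ppm.

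Sdhb, the iron-sulfur subunit of complex II, read 14.15, 14.55, 14.46, 14.58 and 14.94 in ACO5. At 0.5 ppm it read 14.90, 15.19, 15.21 and 15.17, so that 1 exposed array fell below the highest control. At 3 ppm its lowest array was 14.94 and the groups did not overlap. The Sdhb difference was 0.59 ± 0.14 (adjusted p = 0.005) at 0.5 ppm, 0.54 (adjusted p = 0.0071) at 3 ppm and 0.49 (adjusted p = 0.046) at 10 ppm.

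Cyc1, the cytochrome c1 of complex III, read 14.17, 14.54, 14.46, 14.53 and 15.00 in ACO5 and 14.97, 15.30, 15.16 and 15.12 at 0.5 ppm. The overlap came from ACO5 replicate 5. Its differences were 0.59 ± 0.15 (adjusted p = 0.0075), 0.58 (adjusted p = 0.0072) and 0.52 (adjusted p = 0.047) at 0.5, 3 and 10 ppm.

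In complex IV, Cox6a1, the isoform of subunit 6a found in liver, read 14.93, 15.39, 15.33, 15.28 and 15.53 in ACO5. It read 15.56, 15.85, 15.99 and 15.97 at 0.5 ppm and 15.88, 15.75, 15.94 and 15.86 at 3 ppm, with no overlap. The Cox6a1 differences were 0.55 ± 0.14 (adjusted p = 0.0082), 0.56 (adjusted p = 0.0054) and 0.49 (adjusted p = 0.047). Cox4i1, the common isoform of subunit 4, rose by 0.46 (adjusted p = 0.021) and 0.49 (adjusted p = 0.0091) at 0.5 and 3 ppm. All 15 members that rose at 0.5 ppm also rose at 3 ppm, where they made up 75.0% of those that rose, and 5 rose at all 3 concentrations. These comparisons share their control arrays.

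The 4 members lower at 3 ppm were Cox8c (testis isoform of subunit 8) by -0.75 (adjusted p = 0.0076), Cox7c by -1.47 (adjusted p = 0.011), the complex I subunit Ndufa6 by -0.32 (adjusted p = 0.011) and the complex II membrane anchor Sdhd by -0.27 (adjusted p = 0.044). Cox7c was read by a dim probe set, with a median control intensity of 140. Of the fixed complex I genes, Ndufs1, Ndufa9 and Ndufb8 were not called at any naphthalene concentration.

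**Figure D2:**
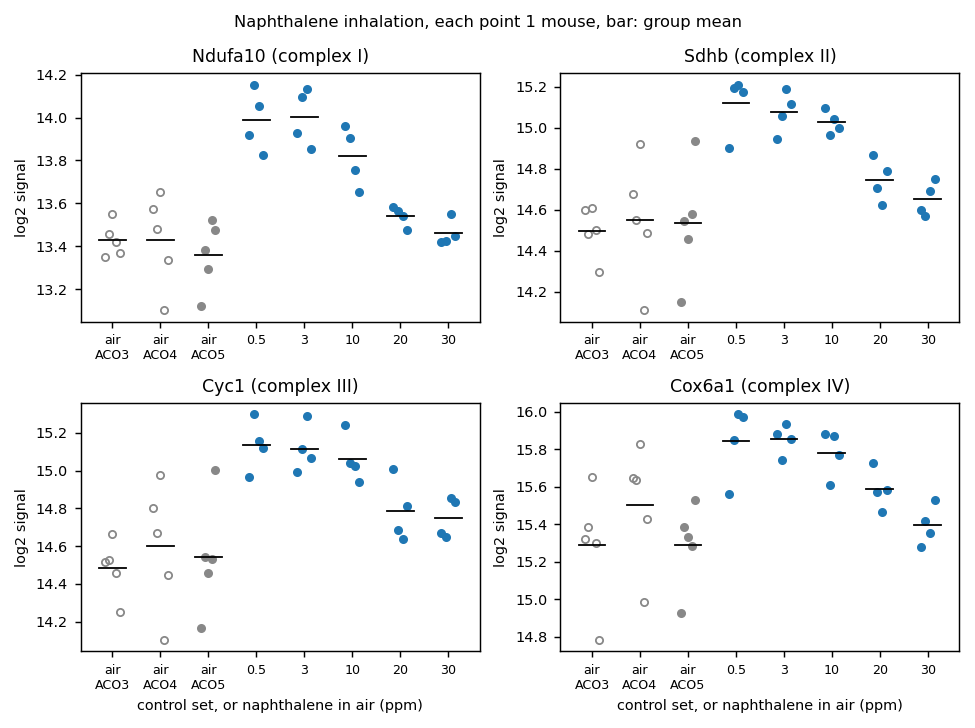
Log2 signal of Ndufa10, Sdhb, Cyc1 and Cox6a1 in each mouse of the 3 air control sets of run D and the 5 naphthalene groups, with concentration in ppm on the horizontal axis. Filled grey points are the matched set ACO5 and bars are group means. For Ndufa10 the 0.5 and 3 ppm arrays lie above every control array, and the 20 and 30 ppm arrays lie among them.

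Other mitochondrial and translation genes were called beside the members. ATP synthase genes rose in 8, 8 and 3 of 16 at 0.5, 3 and 10 ppm, with none lower. Of 16 citrate cycle genes 6, 4 and 1 rose. Of 27 cytosolic ribosome genes 9, 11 and 1 rose and 2, 3 and 1 fell. Of the 5 hepatocyte markers 5, 4 and 0 rose, and their summed intensity was 347500 to 527700 at 0.5 ppm and 380100 to 433100 at 3 ppm against 262100 to 331400 in ACO5. That sum was 363300 to 442200 at 10 ppm. At 20 and 30 ppm, where no member was called, it was 363000 to 394800 and 280900 to 350400. The RNA integrity number was 9.2 in every array with a value at 0.5 and 3 ppm (3 and 4 arrays), 9.1 to 9.3 at 10 ppm, 8.4 to 8.7 at 20 and 30 ppm, and 8.5 to 8.9 in ACO5. The part of hepatocyte RNA and of RNA integrity in these differences was not tested. Without ACO5 replicate 1 the calls fell to 2, 6 and 0 at 0.5, 3 and 10 ppm, and without ACO5 replicate 5 they rose to 21, 31 and 15. Without the first 10 ppm array the count there was also 0, and without the second 0.5 ppm array it was 4 at 0.5 ppm.

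Inhaled methylene chloride gave between 2 and 8 higher members at 500 to 4000 ppm and none at 100 ppm. At 500 ppm 3 members rose (0.676% of all genes), at 2000 ppm 3 (0.671%), at 3000 ppm 8 (2.52%) and at 4000 ppm 2 (1.87%), and this last share of the members was close to that of all genes. At 3000 ppm 1 member fell, a smaller share than the 2.84% of all genes. Setting array medians equal removed every higher call, leaving 0 higher and 1 lower at 500 ppm, none at 2000 ppm, 0 higher and 4 lower at 3000 ppm and 0 higher and 2 lower at 4000 ppm. Quantile normalisation moved the counts the other way, to 4, 9, 16 and 10 higher from 500 to 4000 ppm. The member medians were -0.01, 0.15, 0.18, 0.16 and 0.08 from 100 to 4000 ppm.

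Ndufb6, an accessory subunit of the complex I membrane arm, was higher at 500, 2000 and 3000 ppm. At 3000 ppm it read 14.05, 13.59, 13.91 and 14.02, and 13.07, 13.22, 13.61, 13.54 and 13.33 in the air set ACO4. Only the second exposed array fell inside the control range, and the Ndufb6 difference was 0.54 ± 0.15 (1.45-fold; adjusted p = 0.02). Cox8a, the common isoform of subunit 8, rose by 0.49 (adjusted p = 0.04) at 500 ppm and 0.43 (adjusted p = 0.033) at 3000 ppm. Ndufs3, a core subunit of complex I, rose by 0.35 and 0.32 at 2000 and 3000 ppm.

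Sdha, the flavoprotein of complex II, was the lower member at 3000 ppm. It read 12.34, 13.28, 12.46 and 12.35 against 13.11, 13.37, 12.61, 13.58 and 13.39 in ACO4, a difference of -0.60 ± 0.19 (adjusted p = 0.046), and the groups overlapped. With the mean over the probe sets of each gene the Sdha difference turned to 0.11. Its partner Sdhd rose at 4000 ppm, where it read 13.36, 13.28, 13.44 and 13.44 against 13.21, 13.13, 13.01, 13.03 and 13.11. These groups did not overlap, and the difference was 0.28 ± 0.09 (adjusted p = 0.045). Cytosolic ribosome genes rose in 2, 4, 7 and 4 of 27 from 500 to 4000 ppm and ATP synthase genes in 0 of 16. Of 2 erythroid markers 1 rose at 500, 2000 and 3000 ppm, where their summed intensity was 1260 to 1565, 1374 to 1646 and 1098 to 1747 against 537.3 to 1020.0 in ACO4. Of 5 Kupffer cell markers 1 fell at 3000 ppm, and their sum was 6734 to 7755 against 8877 to 10220.0. The part of these cells in the member differences was not tested. Leaving out 1 array at a time moved the 3000 ppm count between 0 and 15, with 0 without the first exposed array. At 500, 2000 and 4000 ppm the counts so obtained ran from 0 to 6, 0 to 4 and 0 to 2.

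**Figure D3:**
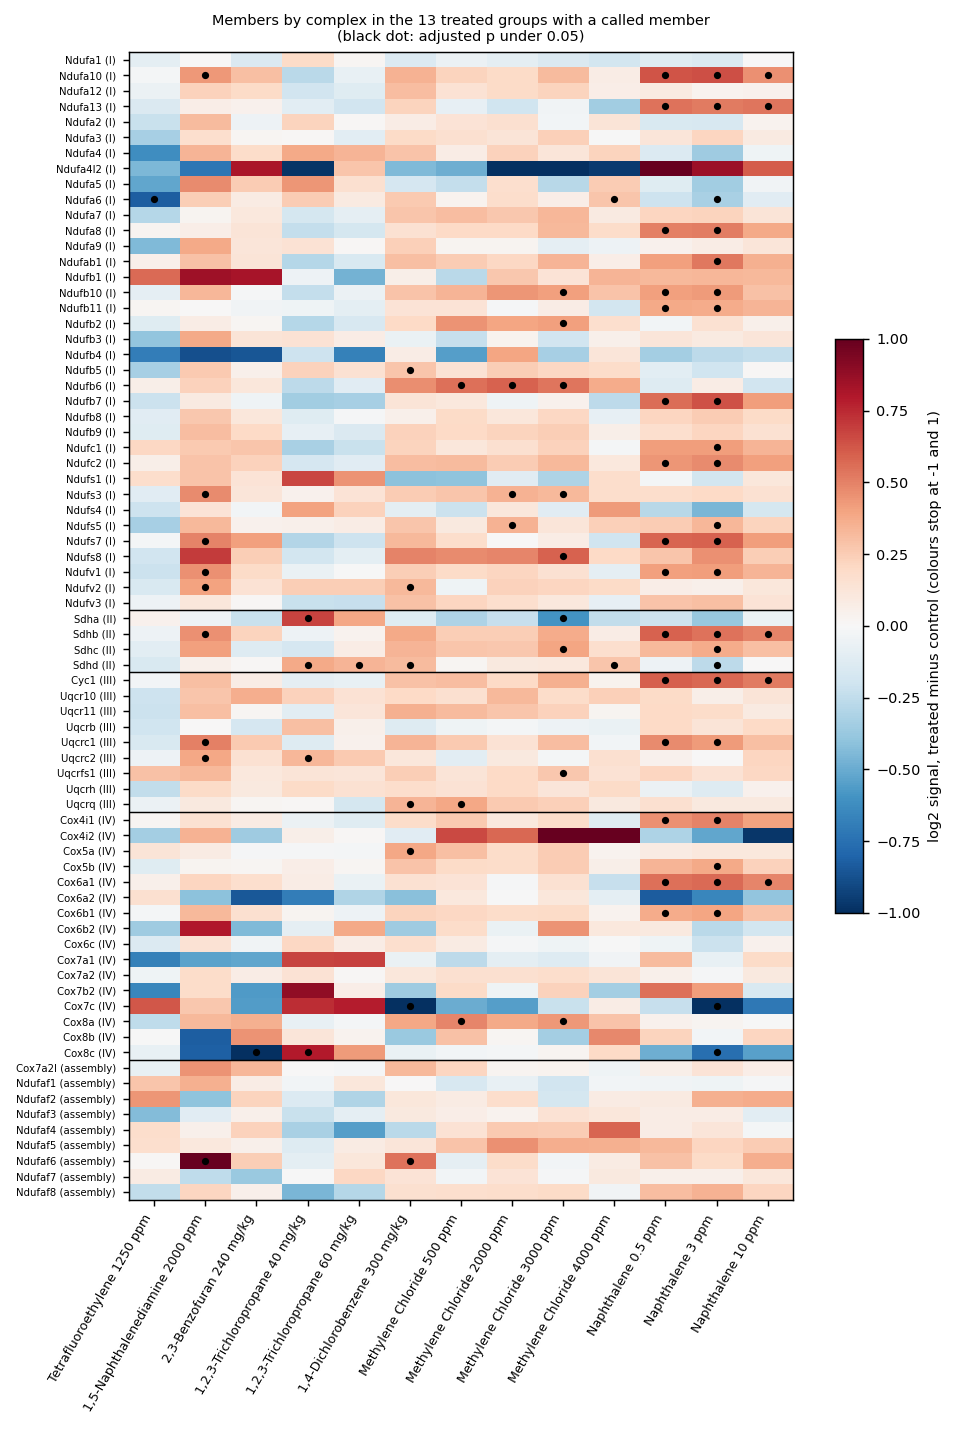
Difference in log2 signal for the 74 genes, in rows grouped by complex, in the 13 treated groups with a called member. Red is higher and blue is lower than control, colours stop at -1 and 1, and black dots mark an adjusted p under 0.05. The dots are densest in the naphthalene columns at 0.5 and 3 ppm.

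1,5-Naphthalenediamine in feed gave 9 higher members and none lower, against 1.67% of all genes called higher. The member median was 0.25 beside an all-gene median of -0.12, and with 2,3-benzofuran this was the largest all-gene shift among the treated groups (both -0.12). Ndufs3 read 13.37, 13.49 and 13.39 against 13.02, 12.89 and 12.93 in chow mice, with no overlap and a difference of 0.47 ± 0.09 (n = 3 and 3; adjusted p = 0.016). Uqcrc2, a core protein of complex III, read 13.64, 13.72 and 13.69 against 13.36, 13.18 and 13.36, a difference of 0.38 ± 0.10 (adjusted p = 0.042). Both sets of treated arrays lay above every control. The assembly factor Ndufaf6 moved most, from 9.28, 9.29 and 9.14 to 10.33, 10.42 and 10.18, a difference of 1.07 ± 0.17 (2.10-fold; adjusted p = 0.0048). Ndufv1, the NADH-binding subunit, rose by 0.46 and the core subunit Ndufs7 by 0.50. Of the other lists, 4 of 16 citrate cycle, 4 of 39 mitochondrial ribosome, 3 of 27 cytosolic ribosome and 1 of 16 ATP synthase genes rose. The summed intensity of 5 Kupffer cell markers was 4935 to 7481 against 8431 to 9896 in chow mice, and that of 4 pancreas markers 83.9 to 288.1 against 339.6 to 875.6, with no marker called. Their part in the result was not tested. With quantile normalisation 1 member was called, and with array medians equal 58 were. Replicate 2 of this group had been rescaled from a trimmed mean of 84.5 to the common 500. On the values as deposited it stayed at 84.5, and the Ndufs3 and Uqcrc2 differences turned to -0.38 and -0.47. Leaving out any 1 array gave 1 to 6 called members.

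1,4-Dichlorobenzene at 300 mg/kg gave 6 higher members, against 1.7% of all genes, and 1 lower, against 1.78%. The 4 other doses gave none. The 1 lower member was a smaller share than the 1.78% of all genes. Ndufv2, a core iron-sulfur subunit of complex I, read 13.64, 13.94, 13.80 and 13.88 against 13.53, 13.53, 13.31, 13.67 and 13.44 in the corn oil set CCO5. One exposed array lay within the control range, and the Ndufv2 difference was 0.32 ± 0.08 (adjusted p = 0.0093). Cox5a, a small subunit of complex IV, rose by 0.38 ± 0.12 (adjusted p = 0.044). Cox7c read 6.35, 6.79, 4.50 and 5.46 against 6.83, 7.27, 6.97, 7.47 and 7.74, with no overlap and a difference of -1.48 ± 0.40 (adjusted p = 0.02) on a dim probe set. Quantile normalisation left 1 higher and 2 lower. The Gapdh 3′ over 5′ log2 ratio, a measure of RNA integrity, was -0.53 to -0.48 in treated and -0.41 to -0.12 in control arrays. With that ratio as a covariate 2 members were higher and 1 lower. The count was 0 without the fourth treated array and 21 without the first.

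1,2,3-Trichloropropane gave 4 higher members at 40 mg/kg, against 0.813% of all genes, and 1 at 60 mg/kg, against 0.269%. Sdhd was higher at both doses. It read 13.27, 13.23, 13.28 and 13.16 at 40 mg/kg and 13.20, 13.08, 13.41 and 13.10 at 60 mg/kg, against 12.86, 13.00, 13.06, 12.62 and 12.72 in the corn oil set CCO6. Neither dose group overlapped its controls, and the Sdhd differences were 0.38 ± 0.09 (adjusted p = 0.0097) and 0.34 (adjusted p = 0.041). At 40 mg/kg Sdha rose by 0.67 and Uqcrc2 by 0.34. With the mean over probe sets no member was called at either dose, and with both corn oil sets of the run pooled 2 and 0 were. At 60 mg/kg the pancreas marker sum was 181.9 to 321.8 against 338.7 to 438.2 and the brown fat marker sum 616.5 to 839.2 against 841.9 to 1371, and their part was not tested. Over all arrays the median signals of the brown fat markers were 9.54 for Elovl3, 7.76 for Cox7a1, 5.55 for Cox8b, 4.87 for Cidea and 4.81 for Ucp1. Elovl3 thus weighed most in that sum, and a difference in the sum alone does not show a difference in brown fat. Without the fourth control array, or the third treated one, the 40 mg/kg count was 0, and without the second it was 8. At 60 mg/kg it ran from 0 to 1.

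A single member was lower in each of 2 other groups. With 2,3-benzofuran, Cox8c read 7.67, 8.25 and 8.27 against 9.20, 8.70 and 9.31, a difference of -1.01 ± 0.23 (2.01-fold; adjusted p = 0.027), against 2.18% of all genes called lower. With tetrafluoroethylene, Ndufa6 read 13.11, 13.26, 12.85 and 13.23 against 13.98, 14.01, 13.98 and 13.77 in the air set ACO1. That difference was -0.82 ± 0.16 (1.77-fold; adjusted p = 0.03), against 0.0385% of all genes called lower. In neither case did the groups overlap, and setting array medians equal ended both calls. For 2,3-benzofuran that setting instead called 48 other members higher. Its Kupffer cell marker sum was 5322 to 8179 against 8349 to 11720.0, its pancreas sum 71.2 to 258.3 against 307.9 to 411.6 and its brown fat sum 1253 to 1481 against 523.3 to 620.4, and their part was not tested. Of the 5 brown fat markers 1 was called higher and 2 lay above 0, and their median difference was -0.29. The higher sum therefore does not show more brown fat RNA. Leaving out 1 array gave 0 to 1 called members for 2,3-benzofuran and 0 to 4 for tetrafluoroethylene.

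With malathion, limma called 4.81% of all genes in either direction. It called 0 of the 74 members, with 4 at an unadjusted p under 0.05. RNA integrity numbers were 4.7 to 6.5 in the 4 malathion arrays with a value and 6.7 to 7.2 in its chow controls. The part of RNA integrity in the 4.81% was not tested. In the other 32 groups without a called member, 0.192% of gene tests were called, and 0 to 29 members per group had an unadjusted p under 0.05. The member medians of these groups ran from -0.08 to 0.24, with N-methylolacrylamide highest at 0.24 (6 members at unadjusted p under 0.05). N-(1-naphthyl)ethylenediamine dihydrochloride had a median of 0.19 and the 29 unadjusted members. With array medians equal 45 of its members were called higher, and with dim genes left out 5 were higher and 1 lower.

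Dose trends were fitted over the ranks of control and 5 doses, and their values are the fitted change from control to the highest dose. The methylene chloride trend gave 7 higher members, against 3.08% of all genes, led by Ndufv2 at 0.31 (adjusted p = 0.0006), Sdhd at 0.27 (adjusted p = 0.014) and the assembly factor Ndufaf4 at 0.63 (adjusted p = 0.016). The Rieske iron-sulfur protein gene Uqcrfs1 rose by 0.24. With array medians equal this trend had 0 higher and 2 lower. The 1,2,3-trichloropropane trend gave 3 higher members, against 0.418%, namely Sdhd at 0.32 (adjusted p = 0.012), the muscle isoform Cox7a1 at 0.76 and Cox8c at 0.60. The 1,4-dichlorobenzene trend gave 1 lower member, Ndufa1, a complex I subunit, at -0.30 (adjusted p = 0.032), against 0.676% of all genes lower. limma called 0 members for the naphthalene trend, with 3 at an unadjusted p under 0.05 and 0.115% of all genes called. Over the 5 dosed groups alone, without the control set, the naphthalene trend had 1 higher and 20 lower members. The share of all genes in that fit is not given, so these counts cannot be read as particular to the members. limma also called 0 for propylene glycol mono-t-butyl ether, with 5 unadjusted and 0.401% of all genes called.

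The 5 pairs of control sets that share a run and vehicle gave 0 called members by limma, with 1 to 18 at an unadjusted p under 0.05, and 0.0495% of gene tests called. Their member medians ran from -0.27 to 0.09. The value of -0.27 belongs to the set CCO3 against WCO1 of run A, both labelled distilled water, although the code of CCO3 resembles those of the corn oil sets. The neutrophil marker sum was 234.4 to 37890 in CCO3 and 121.0 to 539.2 in WCO1. The Kupffer cell marker sum was 6743 to 51590 and 7687 to 13790, and the Gapdh log2 ratio 0.09 to 0.49 and -0.05 to 0.18. Their part in the -0.27 was not tested. The medians of the other pairs ran from -0.0036 to 0.09. Both chemicals given in water, N-methylolacrylamide among them, were set against WCO1.

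More members were called between the air set and the other control sets of run B than in any treated group. These contrasts were chosen after the array means had been seen. In run B, 47 members were higher and 5 lower in the air set ACO1 than in the corn oil set CCO4, against 15% of all genes higher and 16.7% lower. The 5 lower members were a smaller share than the 16.7% of all genes. The member median was 0.55, beside 0.06 for all genes. Each vehicle of run B is 1 set of 4 mice, so vehicle, exposure chamber and set cannot be told apart.

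Members of every complex were higher in air, with 25 of 36 in complex I, 2 of 4 in complex II, 7 of 9 in complex III and 10 of 16 in complex IV. Cyc1 read 15.25, 15.09, 15.20 and 14.44 in air and 14.19, 14.23, 14.13 and 14.00 in oil. Ndufb8, an accessory subunit of complex I, read 14.44, 14.39, 14.49 and 13.91 against 13.60, 13.41, 13.40 and 13.35. Air and oil did not overlap for either gene, and ACO1 replicate 4 was the lowest air array for both. The differences were 0.85 for Cyc1 (adjusted p = 0.00049), 0.87 for Ndufb8 (adjusted p = 0.00041) and 0.90 ± 0.14 for Uqcr11, a small complex III subunit (adjusted p = 0.00018). Sdhb, Cox4i1, Cox5a and Ndufa9 were higher by 0.71, 0.72, 0.44 and 0.38. With the mean over probe sets the Ndufb8 difference was -0.0068.

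Ndufs1, Sdha and Uqcrc2 moved the other way, each as the 1 lower member of its complex. In complex I 33 of 36 genes and in complex III 8 of 9 lay above 0, so other core subunits did not fall with them. Ndufs1, the large iron-sulfur core subunit of complex I, read 10.40, 9.62, 9.50 and 11.65 in air and 11.39, 11.86, 11.86 and 11.69 in oil. Air replicate 4 lay with the oil arrays and the other 3 lay below them all, and the difference was -1.41 ± 0.34 (2.65-fold; adjusted p = 0.0025). Sdha differed by -1.34 ± 0.35 (2.54-fold; adjusted p = 0.0037). Uqcrc2 read 12.91, 12.16, 12.29 and 13.76 in air and 13.49, 13.63, 13.58 and 13.40 in oil, a difference of -0.74 ± 0.25 (adjusted p = 0.021). The assembly factors Ndufaf1 and Ndufaf7 were lower by -0.67 and -0.51.

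The low signals of these 3 genes were shared by the exposed inhalation groups of run B. Over its 12 inhalation arrays (air, tetrafluoroethylene and tetrafluororethane) the lowest, median and highest Ndufs1 values were 9.30, 10.04 and 11.65, and in the other 230 arrays 9.99, 11.65 and 12.35. Only 2 of the 230 lay below the inhalation median. For Sdha the values were 11.11, 12.05 and 13.46 against 11.98, 13.31 and 13.88, and for Uqcrc2 11.95, 12.53 and 13.76 against 12.63, 13.52 and 13.97.

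Against the chow set of run B, 29 members were higher in air (5.97% of all genes) and 1 was lower, Ndufaf1 by -0.68. That 1 lower member was a smaller share than the 8.48% of all genes called lower. In run D, 8 members were higher in air than in corn oil, against 1.25% of all genes. They were led by Ndufv2 at 0.25 (adjusted p = 0.0004) and Uqcr10, a small complex III subunit, at 0.30 (adjusted p = 0.00053). The 4 other vehicle contrasts gave 0 called members by limma, with 0 to 9 unadjusted and 0 percent of gene tests called. Beside the air and oil difference of run B, 11 of 16 ATP synthase, 25 of 39 mitochondrial ribosome and 20 of 27 cytosolic ribosome genes were higher, and 0 of 5 hepatocyte markers were called. Citrate cycle genes were higher in 4 and lower in 6 of 16, and mitochondrial regulators higher in 3 and lower in 6 of 16. Of the other marker lists, 2 of 5 Kupffer cell markers were lower, and 1 of 5 brown fat and 1 of 2 erythroid markers were higher. The Gapdh log2 ratio was -0.54 to -0.40 in ACO1 and -0.64 to -0.62 in CCO4, and with that ratio as a covariate the counts were 0 against oil and 5 against chow. Leaving out 1 array gave 42 to 56 called members against oil, 10 (without ACO1 replicate 3 or chow replicate 3) to 48 (without ACO1 replicate 4) against chow, and 6 to 10 in run D.

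**Figure D4:**
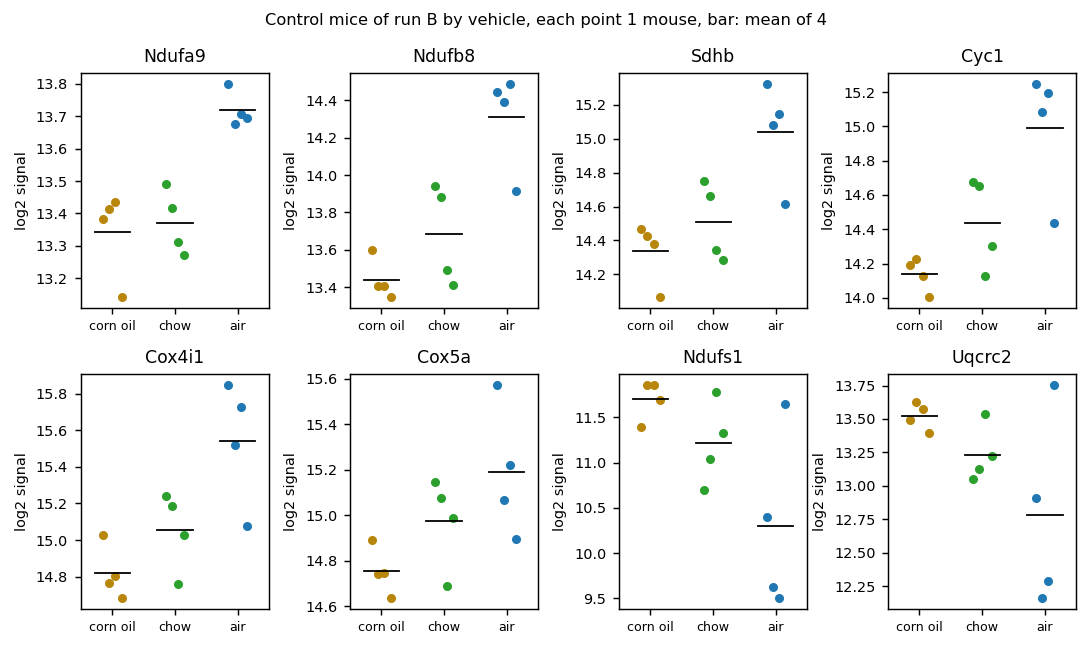
Log2 signal of 8 fixed members in each control mouse of run B, by vehicle, with bars at the means. Ndufs1 lies between 9.50 and 10.40 in 3 of the 4 air arrays and between 11.39 and 11.86 in oil, and Ndufb8 is above every oil array in all 4 air arrays.

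Over the treated groups, Sdhd was called most often, with 4 higher and 1 lower. Ndufa10 and Sdhb were each called higher in 4, and 11 members were called in 3. Of the fixed members, Ndufs1, Ndufa9 and Ndufb8 were called in no treated group, with differences of -0.59 to 0.67, -0.44 to 0.38 and -0.17 to 0.30. Cox4i1 ranged from -0.17 to 0.49 and Cox5a from -0.12 to 0.38.

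Within control sets the least variable members were the complex I genes Ndufs3, Ndufb5 and Ndufa9, with SDs of 0.132, 0.135 and 0.141. The most variable were the dim isoforms Cox8b, Ndufa4l2 and Cox4i2, with SDs of 0.897, 0.758 and 0.729. Deviations from group means over the 242 arrays had a median pairwise correlation of 0.51 among the 60 members with a median intensity over 1000. It was 0.03 among 3825 other genes of that brightness, and it is a description over arrays that share scaling and RNA quality. Sdhb and Cox4i1 followed the other bright members most closely (median r of 0.73 and 0.72), while Ndufs1 and Sdha ran against them (-0.51 and -0.44).

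Of the isoforms known from other tissues, Cox8c was called in 3 treated groups, 1 higher and 2 lower. Cox4i2, Cox6a2, Cox6b2, Cox7a1, Cox7b2, Cox8b and Ndufa4l2 were called in no treated group, although their differences ran as wide as -0.97 to 1.30 for Cox4i2 and -1.23 to 1.33 for Ndufa4l2. Cox8b, found in brown fat, read 6.59, 8.77, 5.07 and 6.51 with ethylene oxide and 4.66, 8.25, 6.94, 6.83 and 4.46 in ACO4. The second array of each group was the highest. In ethylene oxide replicate 2 the brown fat gene Ucp1, the uncoupling protein, read 10.13 while the other 3 arrays lay between 4.39 and 4.89, and Cidea and Adipoq read 9.48 and 9.38. In ACO4 replicate 2 Ucp1 read 8.81, Cidea 7.63 and Adipoq 8.22. The other brown fat markers, Elovl3 and Cox7a1, read 10.34 and 8.60 in the ethylene oxide array, the highest of its group. In ACO4 replicate 2 they read 9.63 and 8.17, within the range of the other controls. The part of fat tissue in the Cox8b values was not tested.

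**Figure D5:**
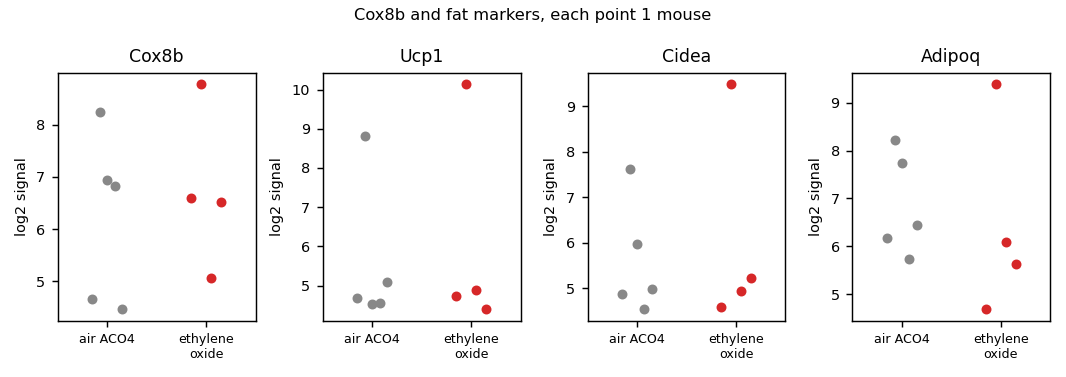
Log2 signal of Cox8b and of the fat genes Ucp1, Cidea and Adipoq in each mouse of the air set ACO4 and the ethylene oxide group. The array with the highest Cox8b of each group, at 8.25 and 8.77, also has the highest Ucp1.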

How the data were processed

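Liver total RNA was hybridised to Affymetrix Mouse430_2 arrays, 1 mouse per array. The deposited intensity values are globally scaled by the authors with GCOS 1.0, per the submitters' processing notes. The 2 arrays off the common trimmed mean of 500 (84.5, 1,5-naphthalenediamine replicate 2, and 148.4, vanadium pentoxide replicate 4) were rescaled to it. Probe sets with 1 gene symbol were kept, with the highest-mean probe set per gene. Each test in the main fit compared a probe set with itself across arrays. Levels of different probe sets were ranked to choose 1 per gene and to describe members as bright or dim. Values were log2(intensity + 17.3), and no filter was applied.

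limma 3.58.1 (R 4.3.3) fitted 1 mean per group over all arrays of a run, with the run code as a block in run A, and p-values were adjusted by Benjamini-Hochberg over 18193 genes. The labels do not state which control set belongs to which chemical; within a run and vehicle, controls were paired by consecutive animal numbers. The malathion dose is that of the characteristics, and its titles give another number. The fit was tested on simulated data. Lists of other genes are described by counts, without a test. Named genes were 8 fixed members (Ndufs1, Ndufa9, Ndufb8, Sdhb, Uqcrc2, Cyc1, Cox4i1, Cox5a), up to 6 called members per direction by adjusted p, the most often called, the most and least variable, and tissue-restricted isoforms. The members and lists were chosen with earlier results of these data known. Alternatives covered scaling, rescaling, dim genes, pseudocount, probe set, RNA quality, fold minimum, arrays in the fit, control sets and leaving out arrays. The number of arrays limits the precision.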

Additional observations from a re-analysis of the deposited data

Results flagged for a closer look

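One array lay apart from the others of its group in 6 of the 102 values for groups of 4 or 5 arrays that were examined, and chance gives about 1 in 20. The array mean over the 74 genes was 12.35 in 1 benzene mouse, with the nearest other at 12.12, and 12.17 in 1 mouse at 300 mg/kg 1,4-dichlorobenzene, with the nearest at 12.37. Sdhb was 14.9 in 1 mouse at 0.5 ppm naphthalene, with the nearest at 15.17. Sdha was 13.28 in 1 mouse at 3000 ppm methylene chloride, with the nearest at 12.46. In the air set ACO1, 1 mouse had the lowest Ndufa6 at 13.77 (nearest 13.97), and 1 had the lowest Ndufb8 at 13.91 (nearest 14.39).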

How the results depend on the processing

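The values are counts of called members; a pair in brackets gives higher and lower, and a single number in brackets the main count. The cause of these changes was not tested. Shares of all genes under these settings are not given, so the counts cannot be read as particular to the members. No paired analysis was possible because the replicate numbers are names in accession order. With quantile normalisation the counts were 1 for 1,5-naphthalenediamine (main 9), 1 for trichloropropane at 20 mg/kg (0) and 2 at 60 mg/kg (1), 3 (1 and 2) for dichlorobenzene at 300 mg/kg (7) and 3 at 400 mg/kg (0). They were 9, 16 and 10 for methylene chloride at 2000, 3000 and 4000 ppm (3, 9 and 2) and 17 for its trend (7). They were 8 (3 and 5) and 0 for naphthalene at 0.5 and 10 ppm (15 and 5), and 18 for air against chow in run B (30). With array medians equal they were 0 for tetrafluoroethylene (1), 58 for 1,5-naphthalenediamine (9), 48 for benzofuran (1), 45 for N-(1-naphthyl)ethylenediamine (0) and 1 for pentachloronitrobenzene (0). They were 1, 16 and 4 for trichloropropane at 2, 6 and 20 mg/kg (0), 21 (20 and 1) and 1 for dichlorobenzene at 300 and 400 mg/kg (7 and 0) and 0 for its trend (1). For methylene chloride they were 1, 0 and 4 at 500, 2000 and 3000 ppm, all lower (3, 3 and 9), and 2 for its trend, both lower (7). For naphthalene they were 27 and 24 at 0.5 and 10 ppm, 11 and 20, all lower, for 25 and 300 ppm of propylene glycol mono-t-butyl ether (0), for air against chow in run B 9, and for air against oil in run D 38 (8). On values as deposited they were 0 for 1,5-naphthalenediamine, benzofuran, trichloropropane at 40 and 60 mg/kg and methylene chloride at 500 to 4000 ppm, and 1 for dichlorobenzene at 300 mg/kg. These values leave 1,5-naphthalenediamine replicate 2 at a trimmed mean of 84.5 and vanadium pentoxide replicate 4 at 148.4, against the common 500. The counts on them were 1, 3 (1 and 2) and 0 for naphthalene at 0.5, 3 and 10 ppm and 40, all lower, for vanadium pentoxide (0). They were 0 for the methylene chloride, trichloropropane and dichlorobenzene trends and air against oil in run D. With dim genes left out they were 2 for malathion (0), 25 (24 and 1) for 1,5-naphthalenediamine, 6 (4 and 2) for benzofuran, 6 (5 and 1) for N-(1-naphthyl)ethylenediamine, 1 for pentachloronitrobenzene, 2 and 9 (8 and 1) for trichloropropane at 20 and 40 mg/kg, 14 and 2 for dichlorobenzene at 300 and 400 mg/kg, 5 for methylene chloride at 2000 ppm and 11 for its trend. The lower pseudocount gave 1 for trichloropropane at 20 mg/kg, and the higher 1 each for N-(1-naphthyl)ethylenediamine and pentachloronitrobenzene. The mean over probe sets gave 4 for 1,5-naphthalenediamine, 2 (1 and 1) for benzofuran, 0 for trichloropropane at 40 and 60 mg/kg, 2 and 1 for dichlorobenzene at 300 and 500 mg/kg, 4 for methylene chloride at 3000 ppm, 0 for naphthalene at 10 ppm, 1 for the trichloropropane trend and 5 for air against oil in run D. The Gapdh covariate gave 2 (1 and 1) for benzofuran, 0 for trichloropropane at 60 mg/kg, 3 (2 and 1) for dichlorobenzene at 300 mg/kg, 1 for methylene chloride at 4000 ppm, and 0 and 5 for air against oil and against chow in run B. A fold of at least 1.5 gave 1 for 1,5-naphthalenediamine, 2 and 0 for trichloropropane at 40 and 60 mg/kg, 1 for dichlorobenzene at 300 mg/kg, 0, 1, 2 (1 and 1) and 0 for methylene chloride at 500 to 4000 ppm, and 3, 5 (3 and 2) and 0 for naphthalene at 0.5, 3 and 10 ppm. It gave 1 for the methylene chloride trend, 0 for the dichlorobenzene trend, 17 (16 and 1) for air against chow in run B and 0 for air against oil in run D. With the 2 groups fitted alone, all 13 treated groups with a called member had 0. Pooled controls gave 2 and 0 for trichloropropane at 40 and 60 mg/kg, 1 and 3 for dichlorobenzene at 100 and 500 mg/kg, 0 and 14 (12 and 2) for methylene chloride at 500 and 3000 ppm, 26 (24 and 2) and 18 (17 and 1) for naphthalene at 0.5 and 10 ppm, and 2 for 1200 ppm of propylene glycol mono-t-butyl ether. Against air set ACO3 naphthalene at 10 ppm had 11 and against ACO4 3 (2 and 1), sets chosen after seeing the data. Linear dose gave 1, lower, for the naphthalene trend and 0 for the trichloropropane trend, and the dosed groups alone gave 4 for methylene chloride, 21 (1 and 20) for naphthalene and 0 for trichloropropane and dichlorobenzene.

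Leaving out 1 array at a time in 93 refits, counts ran from 0 to 1 for benzofuran, 0 to 4 for tetrafluoroethylene, 1 to 6 for 1,5-naphthalenediamine, 0 to 8 and 0 to 1 for trichloropropane at 40 and 60 mg/kg and 0 to 21 for dichlorobenzene at 300 mg/kg. They ran from 0 to 6, 0 to 4, 0 to 15 and 0 to 2 for methylene chloride at 500 to 4000 ppm and from 2 to 21, 6 to 31 and 0 to 15 for naphthalene at 0.5, 3 and 10 ppm. For air against oil in run B they ran from 42 to 56, against chow from 10 to 48, and in run D from 6 to 10. In the values as deposited, with replicate 2 unscaled, 1,5-naphthalenediamine differences turned to -0.42 for Ndufa10, -0.38 for Ndufs3 and -0.35 for Ndufs7. They turned to -0.39 for Ndufv1, -0.40 for Sdhb and -0.47 for Uqcrc2. With the mean over probe sets, Ndufab1 at 3 ppm naphthalene turned to -0.17, Ndufb8 in air against oil of run B to -0.0068, Sdha at 3000 ppm methylene chloride to 0.11, Sdhd in air against oil of run D to -0.0042, and Uqcrq to -0.031 and -0.024 for dichlorobenzene at 300 mg/kg and methylene chloride at 500 ppm. Run A without the run code changed no count. Apart from the settings that left out arrays or the assembly factors, 549 counts stayed within 1.5 times the main count, 77 were lower and 48 higher. The 549 include counts of 0 that stayed 0, and 33 treated groups had a main count of 0. The 549 therefore do not measure how stable the groups with a called member were.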
